A study of Homo sapiens with 6 samples.

Results

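Open chromatin around 4 genes of epithelial identity was followed in 22Rv1, a human prostate cancer cell line, after the FOXA1_dTAG treatment given in the labels. ATAC-seq, in which a transposase cuts and tags accessible DNA, was run 0 h, 1 h and 24 h into the treatment, and 2 libraries were made for each time, 6 in all. All 6 libraries carry the FOXA1_dTAG label. FOXA1 is a forkhead transcription factor that opens chromatin in the luminal prostate epithelium. A dTAG is a degron fused to a protein so that a small molecule can direct that protein to degradation. The labels give no molecule and no dose, do not say whether the engineered line is 1 clone or a pool, and do not give the FOXA1 protein level. They also do not say whether the libraries of 1 time stem from 2 cultures or 1, and the spread between them may therefore be technical.

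The regions were taken by their position in 3 windows, and the windows were set with earlier results of these data known. Every peak of the 6 lists that overlapped chr12:53250000-53380000 (130 kb around KRT8 and KRT18), chr16:68720000-68920000 (200 kb around CDH1) or chr2:47540000-47630000 (90 kb around EPCAM) was taken, in hg19 coordinates. Peaks that overlapped by at least 1 bp, within or between lists, were merged into 1 region. This gave 47 regions of 167726 on the autosomes and X, of which 22 lay in the keratin window, 14 in the CDH1 window and 11 in the EPCAM window. Regions are numbered below from the lowest coordinate of each window, so that keratin region 9 is the ninth region of the keratin window. The windows contain more than the named genes, and without an hg19 annotation no region was tied to a promoter, exon or intron of any of them.

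KRT8 and KRT18 encode a type II and a type I keratin that pair into the intermediate filaments of simple and luminal epithelia, and the genes stand next to each other on chromosome 12. CDH1 encodes E-cadherin, the calcium-dependent adhesion molecule of adherens junctions, whose loss is a hallmark of the epithelial-mesenchymal transition. EPCAM encodes a transmembrane glycoprotein of epithelial cell surfaces that is widely used to capture carcinoma cells. CDH1 lies between CDH3, the gene of P-cadherin, and TANGO6 in the RefSeq gene order.

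Of the 4 genes, the RefSeq promoter table (GRCh38.p14) used here held KRT8. Its 300 bp window runs from 250 bases before to 50 bases after the annotated start on the minus strand of chromosome 12. It is shown because a forkhead factor is the labelled target, and capitals mark the 1 forkhead-like word, TGTTTGC, that was found in it. The word is at bases 261 to 267 of the window and thus lies after the annotated start.
KRT8: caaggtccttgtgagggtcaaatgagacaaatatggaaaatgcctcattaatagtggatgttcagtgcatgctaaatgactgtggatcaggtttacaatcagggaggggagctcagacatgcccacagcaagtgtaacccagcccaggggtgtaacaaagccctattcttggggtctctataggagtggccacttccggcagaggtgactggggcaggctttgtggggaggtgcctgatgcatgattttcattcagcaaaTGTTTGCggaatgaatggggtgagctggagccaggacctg
The forkhead word TGTTTAC was searched on both strands. After this sequence was seen the search was widened to the variant TGTTTGC shown above, to TATTTAC as another, and to the combined form TATTTGC. At least 1 of the 4 words was present in 12.1% of the 35116 promoters in the table. The first forkhead word (3.42% of promoters), the GC box GGGCGG (45.0%) and the TATA box TATAAA (11.5%) were not in this window. Its GC content was 50.7%, against a median of 58.7% over the promoters. Since the peaks are in hg19, no peak was placed on this sequence.

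Each peak comes with a fold, the ratio of the pileup at its summit to a local background, and a q-value, both as deposited by the authors for each library alone. For each region the highest fold of each library was followed. The lists held 118259 and 125396 peaks in the 0 h libraries, 110661 and 117942 in those of 1 h, and 101755 and 114362 in those of 24 h. Relative depth recovered from the peak values was 10.5 and 8.29 tags per kb in the 0 h libraries, 8.14 and 8.62 in those of 1 h, and 7.35 and 7.06 in those of 24 h, so the 24 h libraries were the shallowest. A fold depends on its own list, so folds are given here as descriptions. With 2 libraries against 2, an exact two-sided permutation test cannot go below a p of 0.333, and no difference between times could pass a threshold.

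Most of the open regions around the 4 genes were still listed at every time. Of the 47 regions, 33 had a peak in all 6 libraries, 15 of them in the keratin window, 11 in the CDH1 window and 7 in the EPCAM window. Of these 47, 40 and 40 were listed in the 0 h libraries, 36 and 38 in those of 1 h, and 37 and 36 in those of 24 h. Both 0 h libraries shared 38 regions, and 33 of these (86.8%) were listed in all 6 libraries, against 73.1% of the 99494 such regions in the whole series. The 2 sets differed in peak strength. A −log10 q of at least 10 in both 0 h libraries was found in 27 of the 38 and in 54131 of the 99494. Whether strength had a part in the difference was not tested. Of the regions shared by both 0 h libraries, 7 of 7 in the EPCAM window, 11 of 12 in the CDH1 window and 15 of 19 in the keratin window were listed in all 6. A further 8 regions were seen in 1 library, with folds between 2.30 and 5.89, and 6 were seen in 2 to 5 libraries. Of the 4 single-library regions in the EPCAM window, 3 were from 1 h replicate 2 (folds of 4.20, 2.89 and 5.89).

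**Figure D1:**
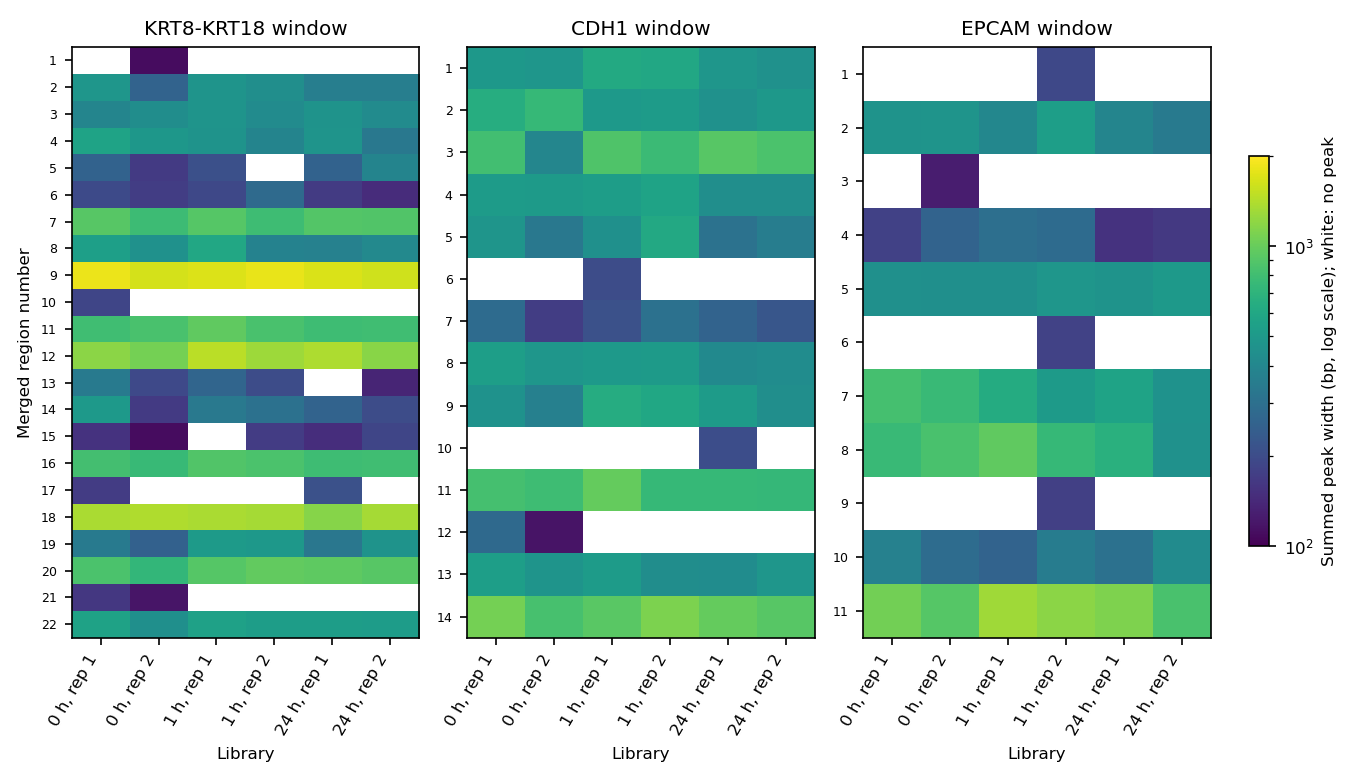
Summed peak width in bp (colour) of each merged region (rows, numbered from the lowest coordinate) in each library (columns, 0 h, 1 h and 24 h) of the keratin, CDH1 and EPCAM windows; empty cells had no peak. Of the 47 rows, 33 are filled in all 6 columns, and keratin region 21 and CDH1 region 12 are filled in both 0 h columns and in no other.

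Of the 38 regions that both 0 h libraries listed, 2 had no peak in either 1 h library, which is 5.26%, against 7.48% of all such regions. The same count at 24 h against 0 h was 2 of 38, against 13.1% of all regions. The lost region of the keratin window, region 21 (chr12:53370106-53370284), was weak at 0 h, with folds of 2.75 and 2.81 and widths of 163 and 119 bp. The lost region of the CDH1 window, region 12 (chr16:68813814-68814092), had folds of 3.88 and 3.89 and widths of 279 and 117 bp at 0 h. Their −log10 q values lay between 2.53 and 7.77, and both were without a peak in all 4 later libraries. Between 24 h and 1 h, none of 34 regions was lost, against 6.42% of all regions. Without 0 h replicate 1, 4 regions were lost at each later time, and without 0 h replicate 2, 4 were lost at 1 h. At 24 h over 1 h, leaving out 1 h replicate 1, 1 h replicate 2 or 24 h replicate 2 gave 3, 1 and 1 lost regions. Leaving out a library makes the rule easier to meet. The share over all regions was not computed for these counts, and nothing is read from them.

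No region in the 3 windows appeared in both libraries of a later time after being absent from both of an earlier one. The counts were 0 of 34 at 1 h against 0 h (3.93% of all regions), 0 of 35 at 24 h against 0 h (6.54%) and 0 of 35 at 24 h against 1 h (3.85%). Among regions with a −log10 q of at least 10 in both libraries of the earlier time, 0 of 27 were lost at 1 h against 0 h (1.51% of all such regions), 0 of 27 at 24 h against 0 h (4.02%) and 0 of 26 at 24 h against 1 h (0.0896%). Strong gains, counted among regions that strong in both libraries of the later time, were 0 of 26 at 1 h against 0 h (0.0338%), 0 of 26 at 24 h against 0 h (0.748%) and 0 of 26 at 24 h against 1 h (0.151%). Each count rests on 26 to 38 regions, and no difference from all regions is read from it. Without 1 h replicate 1, the gains were 3 at 1 h against 0 h and 1 at 24 h against 1 h. Leaving out 1 h replicate 2 gave 1 gain in each of these, and leaving out 24 h replicate 2 gave 1 at 24 h against 0 h and 2 at 24 h against 1 h. For these gains too the share over all regions was not computed, and nothing is read from them.

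The strongest region of the keratin window by q-value was region 16 (chr12:53320922-53321810), whose −log10 q reached 91.1. Its fold was 12.4 and 12.5 in the 0 h libraries, 10.9 and 10.5 in those of 1 h, and 12.6 and 12.6 in those of 24 h. Both 1 h libraries were below both 0 h libraries, and both 24 h libraries were narrowly above them, an order seen in 2 of 33 members (CDH1 region 7 is the other) and in 1.52% of all regions. In scaled pileup, region 16 was higher at both later times, with log2 ratios of 0.18 at 1 h and 0.23 at 24 h over 0 h. Region 22 (chr12:53374538-53375100), near the upper end of the window, had a fold of 11.8 and 13.1 in the 0 h libraries, 11.7 and 13.2 in those of 1 h, and 13.3 and 13.0 in those of 24 h. The folds of the 3 times overlapped there. After division by each library's median, fold and pileup were both higher at 1 h and at 24 h than at 0 h without overlap. The pileup log2 ratios were 0.23 and 0.11. In region 7 (chr12:53273177-53274115) the fold was 7.86 and 9.12 in the 0 h libraries, 8.95 and 9.51 in those of 1 h, and 9.02 and 10.3 in those of 24 h, again with overlap between 0 h and each later time. Divided by the library medians, its fold and pileup were also higher at both later times without overlap (pileup log2 ratios of 0.35 and 0.35).

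Keratin region 19 (chr12:53363834-53364365) was higher at both later times in fold, in scaled fold (the fold over its library's median fold) and in scaled pileup (likewise for the pileup). Its fold was 4.32 and 6.04 in the 0 h libraries, 7.84 and 6.34 in those of 1 h, and 7.73 and 7.05 in those of 24 h. All 4 later libraries exceeded both 0 h libraries, with mean log2 ratios of 0.46 at 1 h and 0.53 at 24 h over 0 h, the highest of the 33 regions at both times. Its pileup was 24 and 22 tags in the 0 h libraries, 52 and 39 in those of 1 h, and 40 and 33 in those of 24 h. After division by each library's median pileup, the log2 ratios were 0.96 at 1 h and 0.93 at 24 h over 0 h. Its peaks were 338 and 254 bp wide in the 0 h libraries, 514 and 496 bp in those of 1 h, and 329 and 464 bp in those of 24 h, so widths at 1 h did not overlap those at 0 h and widths at 24 h did.

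Keratin region 4 (chr12:53264073-53264641) was higher at 1 h alone, with a fold of 6.89 and 6.68 in the 0 h libraries, 7.47 and 8.14 in those of 1 h, and 6.62 and 6.39 in those of 24 h. The 24 h values were below both 0 h values by a small margin (log2 ratio −0.06, and 0.01 in scaled pileup), and this order of the folds was found in 1 of 33 members and in 0.900% of all regions. Region 20 (chr12:53368327-53369310) had a fold of 7.18 and 6.69 in the 0 h libraries, 5.70 and 5.46 in those of 1 h, and 5.85 and 4.86 in those of 24 h. Every later library was below both 0 h libraries, with log2 ratios of −0.31 at 1 h and −0.38 at 24 h over 0 h. In scaled pileup the ratios for region 20 were 0.17 and −0.05, so the direction at 1 h depended on the measure.

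Keratin region 9 (chr12:53289009-53290918) was the widest of the 47 regions at 1910 bp, and its fold was the most reduced at both later times among the 33 regions in all libraries. The fold was 5.73 and 5.94 in the 0 h libraries, 4.17 and 4.14 in those of 1 h, and 4.55 and 4.26 in those of 24 h. Both later times lay below 0 h without overlap, with log2 ratios of −0.49 at 1 h and −0.41 at 24 h. Its widths overlapped between times, since peaks covered 1827 and 1640 bp in the 0 h libraries, 1703 and 1803 bp in those of 1 h, and 1695 and 1606 bp in those of 24 h. The pileup behind the fold was 66 and 45 tags in the 0 h libraries, 57 and 52 in those of 1 h, and 42 and 35 in those of 24 h, which after scaling gave log2 ratios of −0.01 at 1 h and −0.24 at 24 h. Its local background, over the commonest background of each library, was 6.60 and 7.32 in the 0 h libraries, 9.23 and 8.54 in those of 1 h, and 7.83 and 7.76 in those of 24 h. The background was thus higher in every later library, and at 1 h the lower fold stood beside a higher background and a scaled pileup at about its 0 h level. Fold and background belong to the summit of the peak with the highest fold. In this region that summit lay elsewhere at the later times, so the values compare different places within the region.

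The place of the summit within region 9 also differed between times. The summit of the peak with the highest fold lay at 53289278 and 53289282 in the 0 h libraries, 53290021 and 53290509 in those of 1 h, and 53290619 and 53290239 in those of 24 h. Both 0 h summits were in the lower part of the region, and the 4 later ones were at least 500 bp further along. Keratin region 12 (chr12:53300799-53302359), chosen after its values were seen, had its summit at 53301040 and 53301115 in the 0 h libraries, 53301025 and 53301726 in those of 1 h, and 53301728 and 53301741 in those of 24 h. There the 1 h libraries were split, 1 at the 0 h place and 1 at the 24 h place. Its fold was 3.47 and 4.24 in the 0 h libraries, 3.61 and 4.00 in those of 1 h, and 4.55 and 4.27 in those of 24 h. As in region 9, the folds of 0 h and 24 h compare different places within the region.

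Among the 6 member regions of at least 1000 bp listed in all libraries, the summit was at least 500 bp away in 1 at 1 h against 0 h, where 1.26% of 15266 such regions in the whole series qualified. For 24 h against 0 h there were 2 of 6, against 1.41%, and at 24 h against 1 h there were 0 of 6, against 0.780%. Without 1 h replicate 1, regions 9 and 12 both counted at 1 h against 0 h, which gave 2 of 6. Without 1 h replicate 2, 1 of 6 counted at 24 h against 1 h. This distance criterion was set after the summits had been seen, so the counts are a description. Over all 33 regions the 6 summits spanned a median of 98 bp (21 to 1341 bp), against 106 bp over all 72695 regions, and 18 of the 33 stayed within 100 bp.

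**Figure D2:**
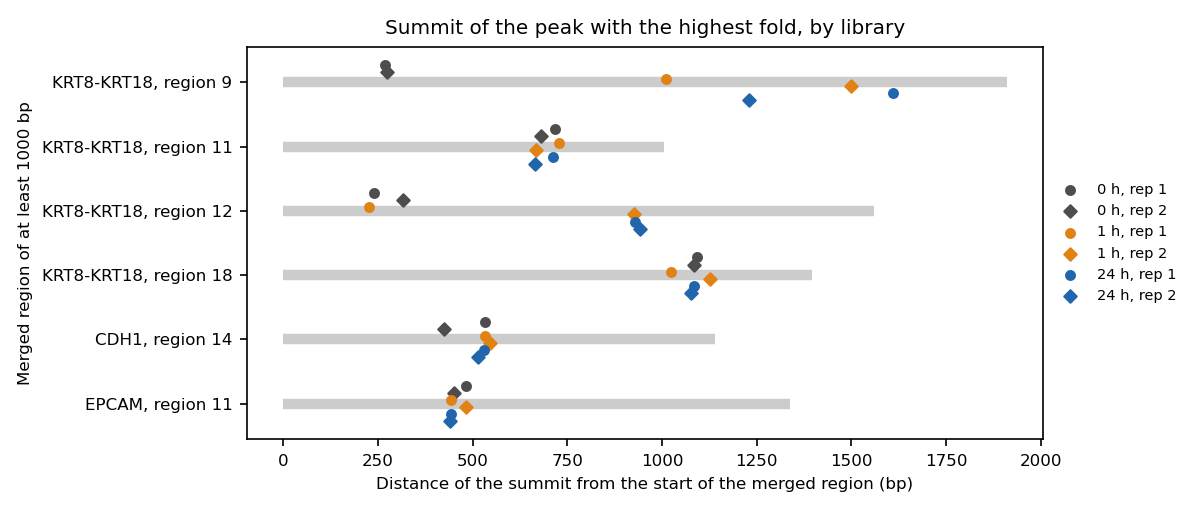
Distance of the summit from the start of the merged region in bp (horizontal axis) for the 6 regions of at least 1000 bp with a peak in every library (rows); each point is 1 library, coloured by time. In keratin region 9 the 0 h points lie apart from all later points, in keratin region 12 they lie apart from both 24 h points, and in the other 4 regions the points of all times lie together.

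The highest mean fold of the 3 windows was in the CDH1 window. Its region 1 (chr16:68738112-68738781) had a fold of 16.6 and 15.8 in the 0 h libraries, 13.6 and 15.3 in those of 1 h, and 15.5 and 16.6 in those of 24 h. The 1 h libraries were below both 0 h libraries (log2 ratio −0.16, and −0.02 in scaled pileup) and the 24 h libraries overlapped them. Its peaks were wider at 1 h, at 616 and 606 bp, than at 0 h, at 492 and 483 bp, and they were 481 and 453 bp wide at 24 h. Region 9 (chr16:68789956-68790596) had a fold of 11.5 and 14.7 in the 0 h libraries, 13.2 and 12.3 in those of 1 h, and 16.2 and 12.6 in those of 24 h, and region 14 (chr16:68877024-68878162), the widest of the window, had 10.4 and 13.9, 11.6 and 11.4, and 11.6 and 12.1 at the same times. The folds of both overlapped between times. Their scaled pileups were higher at 1 h than at 0 h without overlap (log2 ratios of 0.24 and 0.20) and overlapped 0 h at 24 h.

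Other CDH1 regions differed between times in opposite directions. Region 8 (chr16:68778602-68779168) had a fold of 6.61 and 10.0 in the 0 h libraries, 6.52 and 5.55 in those of 1 h, and 7.14 and 7.0 in those of 24 h. The 1 h values were below both 0 h values (log2 ratio −0.44, and −0.34 in scaled pileup), though 1 h replicate 1 missed overlap with 0 h replicate 1 by a small margin. At 24 h the fold overlapped 0 h, while the scaled pileup was below 0 h without overlap (log2 ratio −0.37). Region 7 (chr16:68775697-68776008) was a weak region in high background, with a fold of 2.93 and 2.96 in the 0 h libraries, 2.69 and 2.89 in those of 1 h, and 4.09 and 4.00 in those of 24 h. Both 24 h libraries were above the other 4, with log2 ratios of 0.46 over 0 h and 0.54 over 1 h. The scaled pileup of region 7 was also higher at 24 h, by 0.33 over 0 h and 0.21 over 1 h on the log2 scale. Region 2 (chr16:68756024-68756770), outside the rule for named regions and picked after its values were seen, had a fold of 11.9 and 14.6 in the 0 h libraries, 10.5 and 10.6 in those of 1 h, and 9.27 and 11.9 in those of 24 h, and at 1 h it was below 0 h in fold, in scaled fold and in scaled pileup. At 24 h it was below 0 h without overlap in scaled fold (log2 ratio −0.27) and in scaled pileup (−0.36), and its fold overlapped 0 h by a very small margin.

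In the EPCAM window, the folds of 4 of the 7 regions in all libraries were lower at 1 h than at 0 h without overlap, against 28.8% of all regions. The scaled fold gave 2 lower and 2 higher of the 7, against 21.1% and 22.8% of all regions, and the scaled pileup gave 1 lower and 2 higher, against 18.6% and 32.0%. The highest, region 11 (chr2:47629700-47631037), reached past the upper edge of the window and had a fold of 15.4 and 14.2 in the 0 h libraries, 12.4 and 11.8 in those of 1 h, and 13.6 and 14.6 in those of 24 h. It was lower at 1 h (log2 ratio −0.29, and −0.03 in scaled pileup) and overlapped 0 h at 24 h. Region 8 (chr2:47596077-47597043) had 13.0 and 16.3 in the 0 h libraries, 10.7 and 12.8 in those of 1 h, and 11.9 and 11.2 in those of 24 h. All 4 later values were below both 0 h values, with log2 ratios of −0.31 at 1 h and −0.33 at 24 h, and the scaled pileup gave −0.34 and −0.43. Its peaks spanned 759 and 848 bp in the 0 h libraries, 967 and 745 bp in those of 1 h, and 673 and 456 bp in those of 24 h.

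EPCAM region 7 (chr2:47572056-47572880) was narrower at both later times. The fold was 9.53 and 13.4 in the 0 h libraries, 9.39 and 8.53 in those of 1 h, and 9.63 and 9.08 in those of 24 h, and the width was 824 and 759 bp, 629 and 511 bp, and 570 and 460 bp at the same times. Every later width was below both 0 h widths, while only the 1 h folds lay below both 0 h folds. In scaled fold and in scaled pileup, region 7 overlapped 0 h at both later times. Its widths were not scaled. The median width of all regions listed in every library was 528 and 434 bp in the 0 h libraries, 546 and 525 bp in those of 1 h, and 444 and 449 bp in those of 24 h. Region 2 (chr2:47550109-47550654) had a fold of 8.78 and 9.37 in the 0 h libraries, 12.1 and 9.36 in those of 1 h, and 7.22 and 7.15 in those of 24 h, lower at 24 h than in the other 4 libraries (log2 ratios of −0.34 over 0 h and −0.57 over 1 h). The 2 libraries of 1 h were far apart there.

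Region 4 (chr2:47562235-47562633) had a fold of 5.33 and 5.76 in the 0 h libraries, 3.06 and 5.24 in those of 1 h, and 4.68 and 6.22 in those of 24 h, so its log2 ratio of −0.47 at 1 h rested mainly on 1 h replicate 1. In scaled pileup that ratio was −0.08, and scaled fold and scaled pileup both overlapped 0 h at 1 h. Region 10 (chr2:47615350-47615780) had 7.64 and 5.74 in the 0 h libraries, 5.42 and 7.99 in those of 1 h, and 6.26 and 10.2 in those of 24 h, with overlap throughout. Region 5 (chr2:47567054-47567620), outside the naming rule, was higher at 24 h in both libraries, with a fold of 8.37 and 9.10 in the 0 h libraries, 8.90 and 9.24 in those of 1 h, and 10.1 and 10.3 in those of 24 h.

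**Figure D3:**
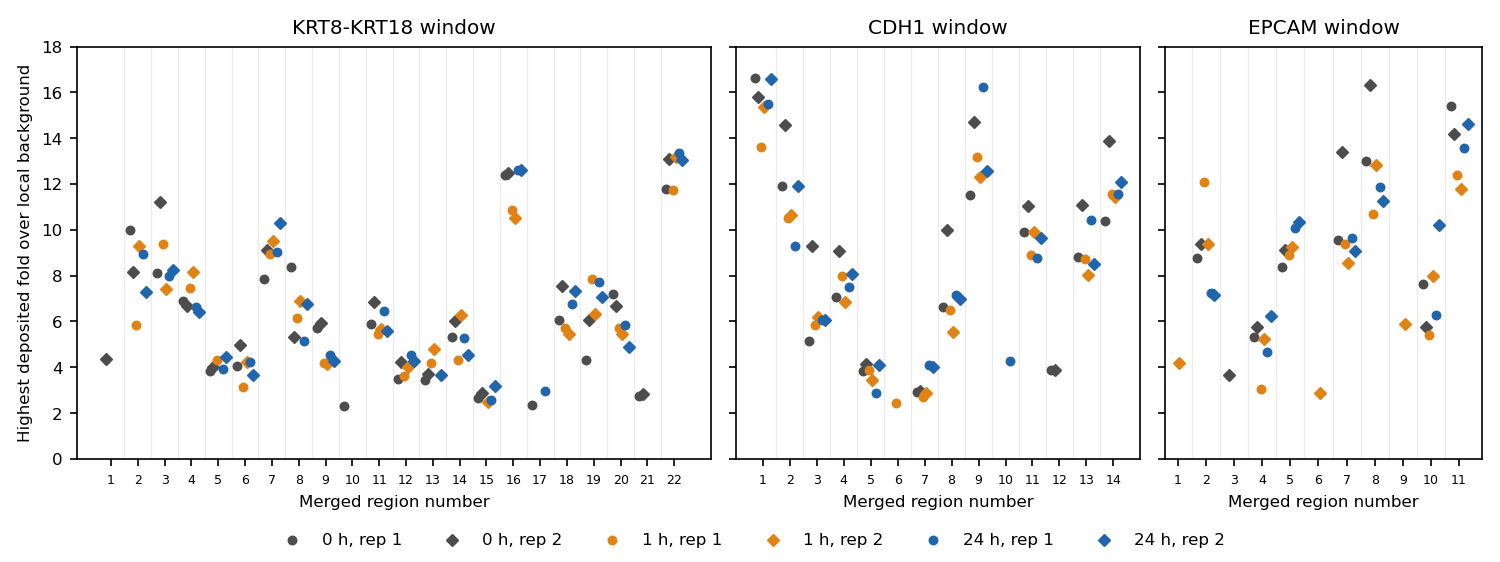
Highest deposited fold over local background (vertical axis) of each merged region (horizontal axis, numbered from the lowest coordinate) in the keratin, CDH1 and EPCAM windows, 1 point per library, coloured by time (0 h, 1 h and 24 h). Keratin region 19 has its 0 h points below the later ones and keratin region 9 has them above, while most regions have points of all times close together.

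Counted over the 3 windows, the fold at 1 h was lower than at 0 h without overlap in 14 of 34 regions (41.2%), against 28.8% of all regions, and higher in 3 (8.82%), against 13.1%. The 14 were 5 of 16 in the keratin window, 5 of 11 in the CDH1 window and 4 of 7 in the EPCAM window, and all 3 higher ones were in the keratin window (regions 4, 13 and 19). The median log2 ratio was −0.16 over the members and −0.08 over all regions. All 11 CDH1 regions listed in every library had a log2 ratio of fold below 0, the nearest being −0.03, but 6 of them were above 0 in scaled pileup. Without 0 h replicate 1, 23 were lower (67.6%, against 58.1% of all regions), and the higher ones were 10 without 0 h replicate 2 (29.4%, against 34.9%), 8 without 1 h replicate 1 (22.9%, against 25.2%) and 5 without 1 h replicate 2 (14.3%, against 21.1%), each under a rule that 1 library fewer makes easier to meet.

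This count turned round with the measure. After each fold was divided by its library's median fold, 9 of 34 were lower (26.5%, against 21.1% of all regions) and 7 higher (20.6%, against 22.8%). With the scaled pileup, 4 were lower (11.8%, against 18.6%) and 13 higher (38.2%, against 32.0%), and the median log2 ratio was 0.15 over the members and 0.08 over all regions. By all 3 measures together, 2 regions were lower at 1 h, CDH1 region 2 and EPCAM region 8 (5.88%, against 15.9% of all regions), and 3 were higher, keratin regions 4, 13 and 19 (8.82%, against 12.0%). Both shares are below those of all regions, and nothing particular to the 3 windows is read from the lower folds at 1 h.

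At 24 h against 0 h the fold was lower in 7 of 35 regions (20.0%, against 24.1% of all regions) and higher in 5 (14.3%, against 20.0%), with a median log2 ratio of −0.07 over the members and −0.03 over all regions. The 7 were keratin regions 4, 9, 14 and 20, CDH1 region 11 and EPCAM regions 2 and 8, and the 5 were keratin regions 12, 16 and 19, CDH1 region 7 and EPCAM region 5. The scaled fold gave 8 lower (22.9%, against 20.7%) and 7 higher (20.0%, against 27.4%), and the scaled pileup 8 lower (22.9%, against 20.9%) and 10 higher (28.6%, against 29.0%). By all 3 measures, 4 were lower (keratin region 9, CDH1 region 11 and EPCAM regions 2 and 8; 11.4%, against 16.1%) and 4 higher (keratin regions 12 and 19, CDH1 region 7 and EPCAM region 5; 11.4%, against 16.6%). In keratin regions 9 and 12 the summits of 0 h and 24 h lay apart, so their folds compare different places. In fold, lower regions numbered 19 without 0 h replicate 1 (54.3%, against 50.5% of all regions), 11 without 0 h replicate 2 (31.4%, against 29.8%), 12 without 24 h replicate 1 (33.3%, against 37.6%) and 15 without 24 h replicate 2 (42.9%, against 38.5%). Higher ones numbered 14 without 0 h replicate 2 (40.0%, against 44.8%) and 10 without 24 h replicate 1 (27.8%, against 30.6%). Between 24 h and 1 h, 2 of 33 regions had a lower fold at 24 h (6.06%, against 16.1%) and 9 a higher one (27.3%, against 29.4%). The scaled fold gave 3 lower (9.09%, against 20.2%) and 8 higher (24.2%, against 24.3%). In scaled pileup that comparison gave 7 lower (against 26.6% of all regions) and 1 higher (against 20.4%), and by all 3 measures 2 were lower, keratin region 4 and EPCAM region 2 (against 13.9%), and 1 was higher, CDH1 region 7 (against 15.6%). With any 1 of these 4 libraries left out, 4 to 8 had a lower fold at 24 h than at 1 h (11.8% to 23.5%, against 25.3% to 30.5% of all regions) and 16 to 19 a higher one (47.1% to 55.9%, against 39.9% to 47.4%).

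**Figure D4:**
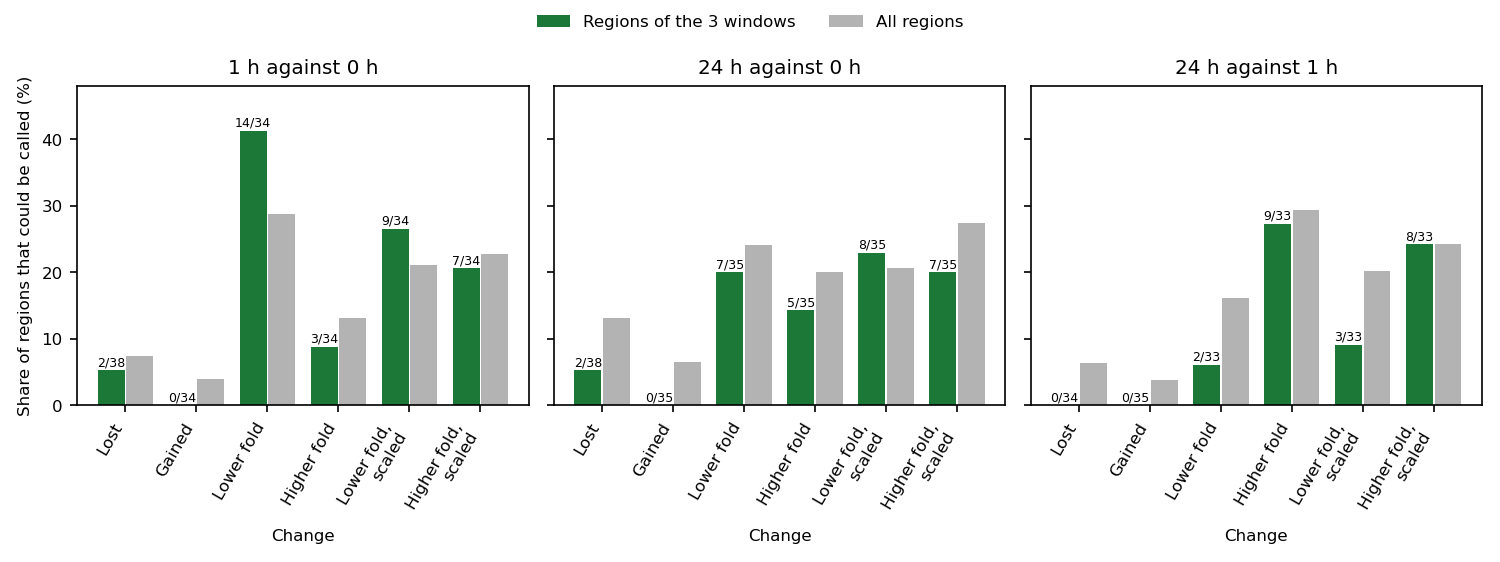
Share of regions in percent (vertical axis) that were lost, gained, lower or higher in fold or in scaled fold, in each comparison of 2 times (panels), for the member regions beside all regions. At 1 h against 0 h the lower-fold bar is 41.2% for the members and 28.8% for all regions, and the gained bar of the members is at 0 in every panel.

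The 3 windows differed in the background on which their peaks stood, a measure that is no part of the rule by which regions were taken. Over regions in all libraries, the local background relative to the commonest background of the library had a median of 4.77 in the keratin window (1.24 to 13.7), 3.76 in the CDH1 window (1.28 to 10.1) and 1.43 in the EPCAM window (0.998 to 2.57), against 1.77 over all regions. The highest value, 13.7, belonged to keratin region 11 (chr12:53298174-53299179), likewise picked after its values were seen, whose fold of 5.87 and 6.85 in the 0 h libraries, 5.47 and 5.67 in those of 1 h, and 6.45 and 5.59 in those of 24 h therefore stood for a pileup of 117 and 91, 117 and 120, and 101 and 78 tags. That region and keratin region 16, at 127 and 86 tags at 0 h, had pileups in the same range, while their folds differed about as their backgrounds did. The median of the mean fold was 6.47 in the keratin window, 9.26 in the CDH1 window and 9.34 in the EPCAM window, against 8.13 over all regions. The keratin window thus had the highest background and the lowest fold. The other 2 windows were close in fold. In the 0 h libraries the median fold was 8.79 and 11.0 for CDH1 and 8.78 and 9.37 for EPCAM, while EPCAM was higher in every later library. A background is part of the fold computed from it, so the 2 measures are not independent.

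The background itself differed between times in the keratin window. Its median there was 3.77 and 4.11 in the 0 h libraries, 4.63 and 4.95 in those of 1 h, and 5.09 and 4.90 in those of 24 h, with every later library above both 0 h libraries. In the CDH1 window it was 3.66 and 3.74, 3.85 and 4.05, and 3.80 and 3.60 at the same times, and in the EPCAM window it was 1.38 and 1.58, 1.62 and 1.76, and 1.42 and 1.30. Over all regions it was level, between 1.76 and 1.81. At 1 h against 0 h, 15 of 34 regions had a higher background without overlap (against 28.4% of all regions) and 3 a lower one (against 14.7%). Set against 0 h, the 24 h libraries had a different split by window: 12 of 17 keratin regions had a higher background and none a lower one, while none of the 11 CDH1 and 7 EPCAM regions had a higher one and 6 of those 18 had a lower one. Over all regions 23.7% were higher and 21.4% lower. Between 24 h and 1 h, 22 of 33 were lower at 24 h (against 45.1%) and 1 was higher (against 15.9%). Leaving out 0 h replicate 1 gave 8 lower at 1 h and 16 lower at 24 h over 0 h, and leaving out 0 h replicate 2 gave 25 higher at 1 h and 22 higher at 24 h. Without 1 h replicate 1, 25 were higher at 1 h over 0 h and 2 at 24 h over 1 h, and without 1 h replicate 2, 5 were lower at 1 h and 5 higher at 24 h over 1 h. Without 24 h replicate 1, 10 were lower at 24 h over 0 h and 3 higher over 1 h, and without 24 h replicate 2, 5 were higher over 1 h. A rule with a library left out is easier to meet. The share over all regions was not computed for the backgrounds under it, and nothing is read from those counts. Regions of a window lie close together and share the tags that make their background, so these counts are not over independent regions, and whether the background had a part in the fold differences was not tested.

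**Figure D5:**
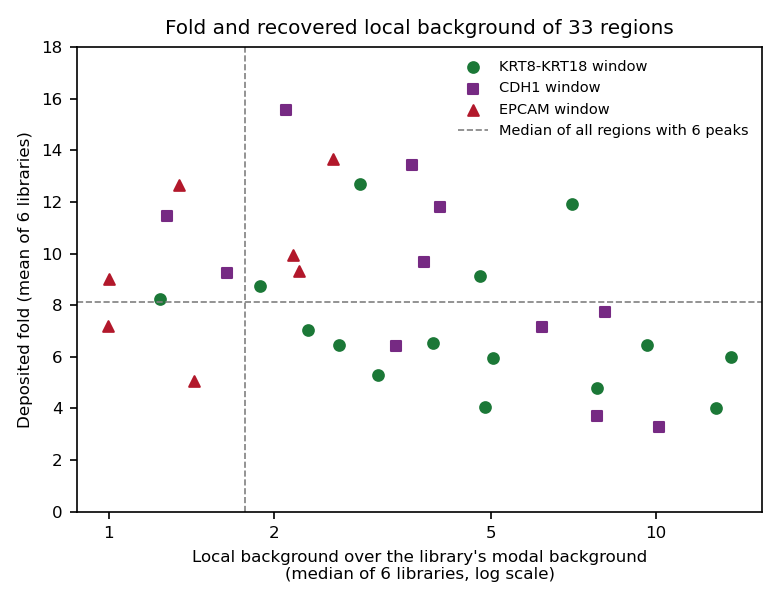
Mean deposited fold (vertical axis) against the median local background relative to the commonest background of the library (horizontal axis, log scale) for the 33 regions with a peak in every library, 1 point per region, coloured by window. EPCAM points lie at low background, from 0.998 to 2.57, and keratin points spread up to 13.7.

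The length covered by peaks in the 3 windows together was 23.7 and 20.4 kb in the 0 h libraries, 23.5 and 22.9 kb in those of 1 h, and 21.1 and 20.1 kb in those of 24 h. The means were 23.2 ± 0.436 kb at 1 h and 22.0 ± 2.30 kb at 0 h (SD, n = 2 each), a difference of 1.19 kb with an exact two-sided permutation p of 1.0. Without 0 h replicate 2 the difference was −0.438 kb. At 24 h the mean was 20.6 ± 0.680 kb (SD, n = 2), which was lower than at 0 h by a difference of −1.45 kb (exact permutation p = 0.667), and without 0 h replicate 1 the difference was 0.179 kb. Against 1 h the 24 h libraries covered less without overlap, by −2.64 kb, at the smallest exact p the design allows (0.333). The EPCAM window separated all 3 times, with 4.11 and 4.11 kb in the 0 h libraries, 4.30 and 4.64 kb in those of 1 h, and 3.68 and 3.20 kb in those of 24 h, each pair of times again at the smallest exact p of 0.333. The separation of 1 h from 0 h there rested on peaks of 191, 181 and 176 bp listed in 1 h replicate 2 alone. Without them the lengths at 0 h and 1 h would overlap. Over all regions the 24 h libraries also covered less than those of 1 h, and less than those of 0 h, while 1 h and 0 h overlapped, with 58.5 and 49.0 Mb in the 0 h libraries, 57.7 and 55.9 Mb in those of 1 h, and 46.0 and 48.6 Mb in those of 24 h.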

How the data were processed

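The 6 peak lists, 1 per library, were read as deposited. The tools named per the submitters' processing notes are MACS2, Bowtie2, fastp and FastQC, on the build hg19; their versions and parameters, duplicate removal and a shift for the transposase cut are not given in the sources used here. As deposited by the authors, a peak has a fold (a linear ratio), a −log10 p, a −log10 q, a score and a summit offset. The deposited score equals 10 times the −log10 q, rounded down, in at least 99.9% of peaks of each list. The lowest deposited −log10 q was 1.30 to 1.32, a q-value threshold of 0.05.

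Peaks on 22 autosomes and X were merged at an overlap of at least 1 bp. Lost means a peak in both earlier libraries and in neither later one; gained is the reverse. Lower or higher means that the libraries of both times all have a peak and their values do not overlap. The scaled fold is the fold over the library's median fold in the 72695 regions listed in all 6 libraries. The pileup was recovered from the deposited fold and −log10 p by taking the fold as pileup plus 1 over background plus 1 and the p-value as Poisson; whole pileups gave the −log10 p back within 0.001 for 100.0% of peaks. Log2 ratios compare mean log2 values. Relative depth is the commonest background over the shortest peak (111 to 172 bp).

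Named regions are, in each window, the 3 with the highest mean fold and the widest, every lost or gained region, and the 3 largest rises and falls in mean log2 fold at 1 h and at 24 h over 0 h. The windows, members and lists were chosen with earlier results of these data known. Lists of other epithelial and mesenchymal genes, and a check of the cell type by its markers, need an hg19 annotation and were not analysed here. The calls were run on simulated lists copied from a library's peaks, with small shifts, low noise and planted losses, gains and fold changes. Their noise was not taken from the replicates here, so the simulation checks the code and gives no error rate for these data. Python 3.11.15, pandas 2.3.3, numpy 2.4.6, SciPy 1.17.1 and matplotlib 3.10.9 were used. Alternatives were a higher q-value cut, lists of equal length, a 50% cover rule, 500 bp summit windows, other scalings, a replicate block and leaving out each library.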

Additional observations from a re-analysis of the deposited data

Results flagged for a closer look

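In 3 of the 33 regions listed in all libraries, the folds at 1 h and at 24 h lay on opposite sides of 0 h without overlap; the difference between the effects at the 2 times was not tested. Keratin region 4 (chr12:53264073-53264641) was above 0 h at 1 h and below it at 24 h, with a log2 ratio of −0.26 at 24 h over 1 h; 0.900% of all regions had this pattern, and 1 of 33 members did. Keratin region 16 (chr12:53320922-53321810) was below 0 h at 1 h and above it at 24 h, with a log2 ratio of 0.24 at 24 h over 1 h, but at 24 h its mean fold of 12.6 was close to the 12.5 at 0 h (log2 ratio 0.02). CDH1 region 7 (chr16:68775697-68776008) had the same order with a log2 ratio of 0.54, of which the 1 h part was small (−0.08 over 0 h). This order was found in 1.52% of all regions and in 2 of 33 members. None of the 3 regions lay on opposite sides of 0 h without overlap in scaled fold or in scaled pileup. In scaled pileup at 1 h and 24 h over 0 h, keratin region 4 had log2 ratios of 0.24 and 0.01. Keratin region 16 had 0.18 and 0.23, and CDH1 region 7 had 0.12 and 0.33.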

How the results depend on the processing

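Of 84 values recomputed under settings other than leaving out a library, 56 stayed within 1.5 times their count or kept their direction and 28 did not; the cause was not tested, except that a stricter setting leaves fewer regions. Regions lost at 1 h against 0 h, 2 in the report, were 0 with peaks of −log10 q of at least 5 or 10, and 1 with lists of equal length or with peaks covering 50% of the region. Lost at 24 h against 0 h, also 2, were 0 at −log10 q of at least 5, 3 at −log10 q of at least 10 and 1 with equal lengths. Under such a cut a later peak below it counts as absent, so a stricter cut can also give more lost regions. Lost at 24 h against 1 h, 0 in the report, were 1 at −log10 q of at least 5 or 10, 1 with equal lengths and 2 with 50% cover. Gained regions, 0 in every comparison, were 1 at 1 h against 0 h (at least 5, equal lengths or 500 bp summit windows), 1 at 24 h against 0 h (at least 10 or summit windows) and 1 at 24 h against 1 h (at least 10 or 50% cover). For the fold at 1 h against 0 h, 14 lower and 3 higher became 9 and 7 with the scaled fold, and 4 and 13 with the scaled pileup. At 24 h against 0 h, 5 higher became 10 with the scaled pileup; at 24 h against 1 h, 2 lower and 9 higher became 7 and 1.

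Leaving out 1 library loosens the rule of no overlap, so counts grow by construction. The share over all regions under this looser rule was computed for the folds alone. At 1 h against 0 h, lower folds were 16 to 23, higher 4 to 10, lost 3 to 4 and gained 0 to 3; without 0 h replicate 1, 67.6% of the members were lower, against 58.1% of all regions. Lower folds at 24 h against 0 h were 11 to 19, higher 6 to 14, lost 2 to 4 and gained 0 to 1. Lower folds at 24 h against 1 h were 4 to 8, higher 16 to 19, lost 0 to 3 and gained 0 to 2. The difference in covered length ranged over −0.438 to 2.82 kb at 1 h against 0 h, turning sign without 0 h replicate 2, over −3.08 to 0.179 kb at 24 h against 0 h, turning sign without 0 h replicate 1, and over −3.12 to −2.16 kb at 24 h against 1 h. Among the measures added after the data were seen, moved summits were 1 to 2 at 1 h against 0 h, 2 at 24 h against 0 h and 0 to 1 at 24 h against 1 h. Higher backgrounds were 17 to 25, 14 to 22 and 2 to 5 in the same order of comparisons, and lower ones 3 to 8, 7 to 16 and 23 to 26.

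The labels do not say whether libraries with the same replicate number belong together. Replicate differences correlated at 0.04, 0.04 and 0.01 between times over 72695 regions, so little replicate effect was shared between times. These values cannot tell whether same-numbered libraries came from 1 culture or run. With the replicate block, counted where both same-numbered pairs went one way, higher folds at 1 h against 0 h were 5, lower folds at 24 h against 0 h were 11, and at 24 h against 1 h they were 4 lower and 15 higher. No other count moved by over 1.5 times. The share over all regions was not computed for the replicate block. Depth differed between times, and its part in the lost regions was not tested; peaks with folds as low as 2.57 (keratin region 15) were listed at 24 h.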
